A study of Yarrowia lipolytica with 8 samples.

Results

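The comparison described here sets the oxygen-controlled culture against the oxygen-uncontrolled culture of *Yarrowia lipolytica* once glycerol had become limiting. It holds 4 of the 8 libraries of the series, chosen by their labels, namely the 2 replicates of group pO2-2 and the 2 replicates of group pO2-UN-3. Group pO2-2 is strain ACA DC 50109 from a bioreactor in which the dissolved oxygen tension (pO2) was controlled. Group pO2-UN-3 is the same strain from a bioreactor in which pO2 was left uncontrolled. No mutation or drug treatment is named for either group, and both grew in nitrogen-limited medium on a mixture of glucose and glycerol. The labels give the oxygen mode of each library. That both groups were sampled after glycerol limitation is taken from the study's description, since the sample labels give no phase. The study describes the replicates as biological. The labels do not say whether they came from separate fermentations, so the p-values below measure the spread between these samples, which may be technical in part. The bioreactor, the time of sampling, the deposited table and the oxygen mode all change together between the groups, and their effects cannot be told apart.

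*Y. lipolytica* is an oleaginous, strictly aerobic yeast. Under nitrogen limitation it stops dividing, stores lipid and secretes citric acid. It also lives on hydrophobic substrates, for which it uses secreted lipases and proteases, cytochrome P450 monooxygenases that need molecular oxygen, and peroxisomal beta-oxidation. Oxygen is the acceptor of the respiratory chain and also a direct substrate for steps of sterol, haem and unsaturated fatty acid synthesis. The files annotate genes by KEGG Orthology, a catalogue of functions shared between species, and by their best protein match, which for most genes is only the gene's own entry under its systematic name. Functions below are those of the first KEGG Orthology entry. No sequence of these genes was used here.

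Expression was measured by paired-end RNA sequencing as FPKM, which divides the fragments of a gene by its length and by the mapped fragments of the library. Low FPKM values move in steps of 1 fragment, and these steps put the depth at 5320000 and 5340000 fragments in pO2-2, against 5160000 and 5260000 fragments in pO2-UN-3. Between 6150 and 6201 genes had an FPKM of at least 1 in each of the 4 libraries. The replicates of pO2-2 differed little more than the counting of fragments alone would give, with a variance that averaged 1.26 times the sampling noise over genes. In pO2-UN-3 the average was 17.0 times that noise. Over genes with a mean of 32 FPKM or more, the SD of the replicate-to-replicate log2 difference was 0.105 in pO2-2 and 0.303 in pO2-UN-3. Most of the replicate spread therefore lay in the uncontrolled libraries.

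Of 6209 genes tested, 113 were higher and 83 were lower with pO2 control. This is 1.82% and 1.34% of the genes tested (3.16% in either direction), at a Benjamini-Hochberg adjusted p under 0.05 in limma and an absolute log2 difference of at least 2. All 196 called genes had no overlap between the groups, which was also true of 79.6% of all genes tested. The log2 difference of all genes had a median of 0.098, with 5% of genes under -1.12 and 5% over 1.29. Without the log2 minimum, 1768 genes (28.5%) passed the adjusted p as higher and 1336 (21.5%) as lower. Most differences that exceeded the replicate spread therefore did not reach the log2 minimum. Under median-of-ratios scaling 1477 were higher and 1586 lower, so which direction held more genes depended on the scaling. The called higher genes had a median FPKM of 85.6 in pO2-2 and 11.98 in pO2-UN-3. The called lower genes had medians of 17.0 in pO2-2 and 97.9 in pO2-UN-3. In 68 of the 83 lower genes pO2-UN-3 replicate 1 was above replicate 2, and without that library 53 genes were called lower, 52 of them among the 83. Without pO2-UN-3 replicate 2 the count was 92. Designs of 2 against 2 libraries cannot go below p = 0.333 in a two-sided exact permutation test, so the calls rest on limma's pooled estimate of the spread. In the fits without a pO2-UN-3 library that estimate came from pO2-2 alone, whose replicates differed less.

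**Figure D1:**
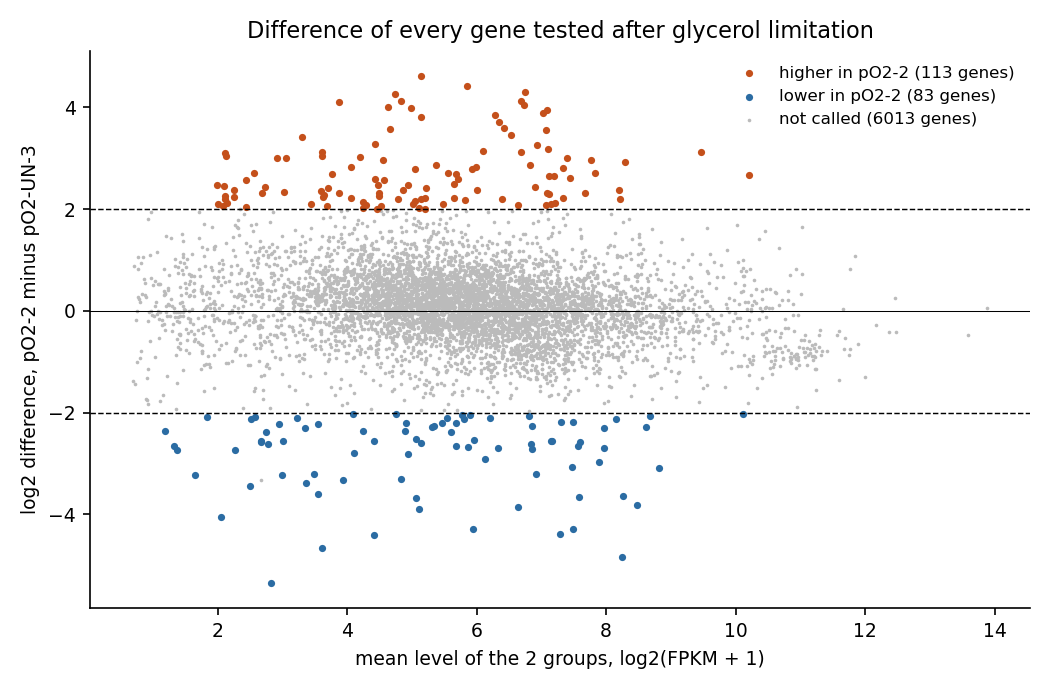
Each point is 1 of the 6209 genes tested, placed by its mean level over both groups (x axis, log2(FPKM + 1)) and by its log2 difference, pO2-2 minus pO2-UN-3 (y axis). The dashed lines mark a log2 difference of 2 in either direction, and coloured points are the 113 higher and 83 lower genes, few of which lie among the most abundant genes.

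Among the genes with a worded entry, the 3 largest rises with pO2 control were in genes of hydrolases. Alkaline phosphatase D (YALI0_F08129g, CLIB122 chromosome F, 1146804 to 1147826), which releases phosphate from organic esters, was at 267 and 266 FPKM in the pO2-2 libraries, against 12.01 and 11.04 FPKM in the pO2-UN-3 libraries. This is a 23.1-fold rise of the means, with a log2 difference of 4.42 (SE 0.098, limma adjusted p = 4.8e-05). Cerevisin (YALI0_A10208g, chromosome A, 1030799 to 1032058), a vacuolar serine protease of the subtilisin family, was at 120.2 and 115 FPKM in pO2-2, against 5.31 and 6.34 FPKM in pO2-UN-3 (log2 difference 4.12, SE 0.13, adjusted p = 0.00012). An esterase/lipase gene (YALI0_E10659g, chromosome E, 1322389 to 1323849) was at 58.6 and 61.3 FPKM in pO2-2 and at 2.48 and 2.58 FPKM in pO2-UN-3 (log2 difference 4.11, SE 0.14, adjusted p = 0.00013). For these 3 genes the replicates of each group lay close together, far from those of the other group. The largest rise of any gene tested was in YALI0_C15532g (chromosome C, 2170451 to 2173659), whose entry is a metallo-endopeptidase class without a worded name. It was at 172 and 173 FPKM in pO2-2, against 5.33 and 6.93 FPKM in pO2-UN-3 (log2 difference 4.61). It falls outside the rule for named genes and was picked after its values were seen.

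Further hydrolase genes were called, most of them higher. Of 147 tested genes with a peptidase entry (enzyme class 3.4), 8 were called higher and 1 was called lower. That is 5.44% and 0.68%, beside 1.82% and 1.34% of all genes, and this grouping was also made after the values were seen. In the list of aspartyl and subtilisin-type proteases, 2 of 35 tested genes were called, both higher. Besides cerevisin this was the aspartyl protease gene YALI0_C08899g, at 12.7 and 13.8 FPKM in pO2-2 and 1.70 and 2.05 FPKM in pO2-UN-3 (log2 difference 2.31, adjusted p = 0.00092 in limma). The median log2 difference of the list was 0.50, beside 0.098 for all genes. Of 26 lipase and esterase genes, 5 were called higher and none lower, with a median of 0.62. At an adjusted p under 0.05, 12 were higher and 3 lower, beside 28.5% and 21.5% of all genes. Besides YALI0_E10659g, the esterase/lipase YALI0_F30547g was at 301 and 303 FPKM in pO2-2, against 53.01 and 67.8 FPKM in pO2-UN-3 (log2 difference 2.31). The triacylglycerol lipase YALI0_B11858g was at 10.4 and 6.62 FPKM in pO2-2, against 0.78 and 1.15 FPKM in pO2-UN-3 (log2 difference 2.25, and 1.96 without pO2-2 replicate 1). Of 25 phosphate acquisition genes only YALI0_F08129g was called, while 10 were higher and 3 lower at an adjusted p under 0.05, beside the same shares. A second alkaline phosphatase D, YALI0_D02167g, went the opposite way without reaching the call, with 226 and 233 FPKM in pO2-2, against 763 and 767 FPKM in pO2-UN-3 (log2 difference -1.73, adjusted p = 0.00013).

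Both enzymes that take N-acetylglucosamine 6-phosphate into glycolysis rose with pO2 control. The deacetylase YALI0_E20163g (chromosome E, 2392824 to 2394050), which removes the acetyl group, was at 178 and 158 FPKM in pO2-2 and 20.8 and 24.8 FPKM in pO2-UN-3. The log2 difference was 2.83 (SE 0.13, limma adjusted p = 0.00021). The deaminase YALI0_C01419g (chromosome C, 197136 to 197957) converts glucosamine 6-phosphate to fructose 6-phosphate and ammonium. It was at 427 and 428 FPKM in pO2-2, against 27.01 and 23.4 FPKM in pO2-UN-3, a 16.98-fold difference of the means (log2 difference 4.04, SE 0.10, adjusted p = 6.8e-05). The cell wall and mannosylation list held 1 call among 52 genes, mannan endo-1,6-alpha-mannosidase YALI0_F21857g, at 107 and 106 FPKM in pO2-2 and 27.2 and 17.7 FPKM in pO2-UN-3 (log2 difference 2.23, and 1.93 without pO2-UN-3 replicate 2). This list had a median of -0.10, with 13 genes higher and 9 lower at an adjusted p under 0.05, beside 28.5% and 21.5% of all genes.

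**Figure D2:**
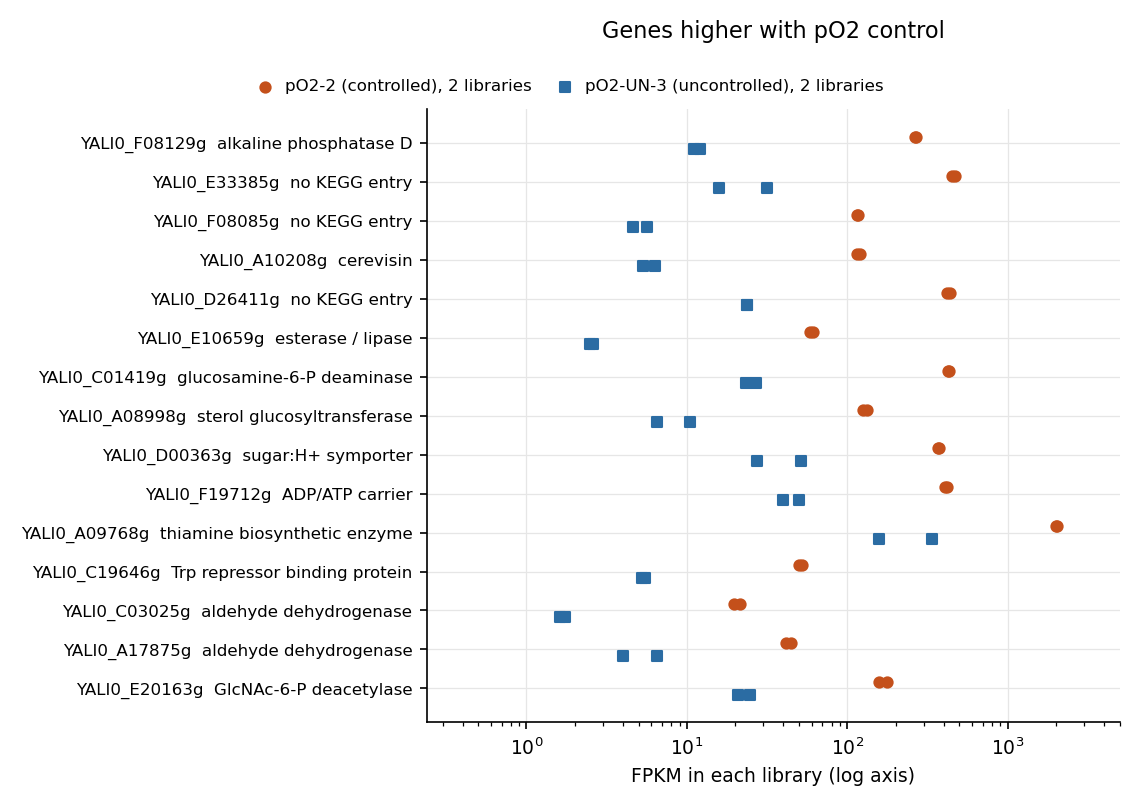
FPKM in each of the 4 libraries (x axis, log scale) for the 12 called genes with the largest rise and a named KEGG function, and the 3 with the largest rise and no KEGG entry, ordered by log2 difference from top to bottom. Circles are the 2 pO2-2 libraries and squares the 2 pO2-UN-3 libraries. In all 15 genes both circles lie to the right of both squares.

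Cytochrome P450 monooxygenases insert an oxygen atom from O2 into fatty acids, alkanes or sterols. Of 14 tested genes of this list, 5 were called higher, none was called lower, and 13 were higher at an adjusted p under 0.05. Over all genes 1.82% were called higher, and 28.5% were higher at that threshold. The list median was 1.71, the highest of the function lists. YALI0_B13838g (chromosome B, 1857153 to 1858748) was at 485 and 495 FPKM in pO2-2, against 23.2 and 44.2 FPKM in pO2-UN-3 (log2 difference 3.89, SE 0.29, limma adjusted p = 0.0007). YALI0_E25982g (chromosome E, 3083273 to 3084844) was at 299 and 279.5 FPKM in pO2-2, against 17.3 and 30.9 FPKM in pO2-UN-3 (log2 difference 3.59, adjusted p = 0.00069). YALI0_B06248g (chromosome B, 828485 to 830122) was at 58.1 and 55.1 FPKM in pO2-2, against 7.11 and 10.6 FPKM in pO2-UN-3 (log2 difference 2.57, adjusted p = 0.00077). The groups did not overlap in these genes, and in each of them pO2-UN-3 replicate 2 was above replicate 1. The other called members, YALI0_E23474g and YALI0_A20130g, had log2 differences of 2.48 and 2.42. The exception in the list was the sterol 14-demethylase YALI0_B05126g of ergosterol synthesis, which was lower, at 92.8 and 95.9 FPKM in pO2-2 and 138 and 113 FPKM in pO2-UN-3 (log2 difference -0.40, adjusted p = 0.039). Summed over the 14 genes the list was at 1965 and 1967 FPKM in pO2-2, against 482 and 725 FPKM in pO2-UN-3. These genes resemble each other, and reads that match several of them could have been divided between them in a way the files do not show.

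Genes of aldehyde oxidation and of fatty acid breakdown also held calls. Aldehyde dehydrogenases oxidise aldehydes to acids. Of 32 tested genes of their enzyme class 1.2, 2 were called higher and 2 lower. That is 6.25% in each direction, beside 1.82% and 1.34% of all genes, in a grouping made after the values were seen. YALI0_C03025g was at 21.3 and 19.6 FPKM in pO2-2 and 1.62 and 1.73 FPKM in pO2-UN-3 (log2 difference 3.0, limma adjusted p = 0.0005). YALI0_A17875g was at 44.5 and 41.3 FPKM in pO2-2 and 4.01 and 6.55 FPKM in pO2-UN-3 (log2 difference 2.83, adjusted p = 0.00083). In peroxisomal beta-oxidation, which shortens fatty acids to acetyl-CoA, 2 of 15 tested genes were called, both higher, and 14 were higher at an adjusted p under 0.05. The shares over all genes were 1.82% called higher and 28.5% higher at that threshold. The acyl-CoA oxidase YALI0_E06567g, the first enzyme of the cycle, was at 67.4 and 69.7 FPKM in pO2-2 and 12.9 and 16.5 FPKM in pO2-UN-3 (log2 difference 2.15, and 1.99 without pO2-UN-3 replicate 1). The acyl-CoA synthetase YALI0_B05456g was at 14.2 and 14.6 FPKM in pO2-2 and 2.15 and 1.59 FPKM in pO2-UN-3 (log2 difference 2.43). The acyl-CoA oxidase YALI0_C23859g went the other way with 56.6 and 54.2 FPKM in pO2-2, against 102 and 107 FPKM in pO2-UN-3 (log2 difference -0.91, adjusted p = 0.0013). The medians were 1.09 for this list and 0.99 for 12 peroxins, the proteins that build peroxisomes. None of the peroxins was called and 10 of them were higher at an adjusted p under 0.05, with log2 differences of 0.26 to 1.23 over all 12.

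Catalase removes the hydrogen peroxide that acyl-CoA oxidase forms. Of 3 catalase genes, YALI0_E34749g was called, at 302 and 312 FPKM in pO2-2, against 65.1 and 75.5 FPKM in pO2-UN-3 (log2 difference 2.11, SE 0.098, limma adjusted p = 0.00022). YALI0_F30987g was at 601 and 614 FPKM in pO2-2, against 188 and 242 FPKM in pO2-UN-3 (log2 difference 1.51, adjusted p = 0.00091), under the log2 minimum. YALI0_E34265g was low in both groups, at 10.04 and 10.01 FPKM in pO2-2 and 4.40 and 6.19 FPKM in pO2-UN-3 (log2 difference 0.82). The superoxide dismutases were divided and none was called. In the iron-manganese family YALI0_C16621g was at 184 and 177 FPKM in pO2-2, against 52.6 and 94.4 FPKM in pO2-UN-3 (log2 difference 1.34, adjusted p = 0.011). In the same family YALI0_B20086g and YALI0_B16742g had log2 differences of -0.78 and -0.96 (adjusted p = 0.0019 and 0.003), and YALI0_B08921g one of -0.08 (adjusted p = 0.54). The copper-zinc enzyme YALI0_E12133g, the most abundant, was at 1335 and 1377 FPKM in pO2-2 and 1759.8 and 1801 FPKM in pO2-UN-3 (log2 difference -0.39). Lactoylglutathione lyase YALI0_E24057g, which detoxifies methylglyoxal, was the only call among 19 glutathione, thioredoxin and glyoxalase genes, at 423 and 422 FPKM in pO2-2 and 49.9 and 71.7 FPKM in pO2-UN-3 (log2 difference 2.80, adjusted p = 0.00052).

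Several transporters of the plasma membrane and 1 mitochondrial carrier were called higher with pO2 control. The sugar symporter YALI0_D00363g (chromosome D, 35951 to 37570) was at 375 and 366 FPKM in pO2-2 and 27.5 and 51.5 FPKM in pO2-UN-3 (log2 difference 3.26, SE 0.28, limma adjusted p = 0.00092). A second member of the sugar transporter list, YALI0_B00396g, was called at low levels of 6.73 and 11.5 FPKM in pO2-2, against 1.04 and 0.57 FPKM in pO2-UN-3. This makes 2 of 15 tested sugar transporters called higher and none lower, beside 1.82% and 1.34% of all genes. The mitochondrial ADP/ATP carrier YALI0_F19712g (chromosome F, 2621456 to 2622626), which exports ATP from the mitochondrion, was at 408 and 417 FPKM in pO2-2, against 39.7 and 50.3 FPKM in pO2-UN-3 (log2 difference 3.18, adjusted p = 0.00017). It was the only call among 30 mitochondrial solute carriers, whose median was -0.31. At an adjusted p under 0.05, 6 of these carriers were higher and 14 lower, beside 28.5% and 21.5% of all genes. The allantoate permease YALI0_F16423g was at 455 and 440.0 FPKM in pO2-2, against 66.3 and 119 FPKM in pO2-UN-3 (log2 difference 2.32, and 1.90 without pO2-UN-3 replicate 1). It was 1 of 11 ammonium and allantoate transporters, whose median of 1.07 was also above that of all genes.

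Transporters with a lactate-family entry carry small organic acids. Of 5 tested members 2 were called higher, beside 1.82% of all genes. YALI0_E32901g was at 340.0 and 324 FPKM in pO2-2, against 33.3 and 80.9 FPKM in pO2-UN-3 (log2 difference 2.65, SE 0.39, limma adjusted p = 0.0043). YALI0_B19470g was at 26.5 and 23.8 FPKM in pO2-2, against 6.57 and 4.24 FPKM in pO2-UN-3 (log2 difference 2.05). This call is at the limit, since the value was 1.96 under median-of-ratios scaling, 1.98 without pO2-2 replicate 1 and 1.79 without pO2-UN-3 replicate 2. The replicates of pO2-UN-3 lay apart in both genes, with replicate 2 above replicate 1 in YALI0_E32901g and below it in YALI0_B19470g. The most abundant member, YALI0_C15488g, was at 546 and 548 FPKM in pO2-2, against 171 and 245 FPKM in pO2-UN-3 (log2 difference 1.41, adjusted p = 0.0023), under the log2 minimum. Glycolate oxidase YALI0_D12661g, which acts on hydroxy acids, differed by less than the replicate spread, with 17.3 and 13.8 FPKM in pO2-2 and 16.5 and 15.4 FPKM in pO2-UN-3 (log2 difference -0.04, adjusted p = 0.85).

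Other single genes rose. The thiamine biosynthetic enzyme YALI0_A09768g (chromosome A, 978999 to 979952), which builds the thiazole part of thiamine, had, after YALI0_D20306g, the highest level of the genes called higher, with 2008 and 2020.3 FPKM in pO2-2, against 157 and 339 FPKM in pO2-UN-3 (log2 difference 3.12, SE 0.35, limma adjusted p = 0.0018). Sterol 3beta-glucosyltransferase YALI0_A08998g was at 126 and 132 FPKM in pO2-2 and 6.49 and 10.5 FPKM in pO2-UN-3 (log2 difference 3.80). YALI0_C19646g, with an entry as Trp repressor binding protein, a family of flavoproteins, was at 50.2 and 52.4 FPKM in pO2-2 and 5.26 and 5.52 FPKM in pO2-UN-3 (log2 difference 3.03). The files hold a pair of elongation factor 2 genes. The less abundant one, YALI0_A20152g (chromosome A, 2167629 to 2170157), was at 118 and 118 FPKM in pO2-2 and 18.4 and 22.1 FPKM in pO2-UN-3 (log2 difference 2.50, adjusted p = 0.00026). The abundant one, YALI0_A00352g, was at 2684 and 2679 FPKM in pO2-2 and 1604 and 1632 FPKM in pO2-UN-3 (log2 difference 0.73). An ABC transporter of the multidrug type, YALI0_A11473g, was called at 7.14 and 7.48 FPKM in pO2-2, against 0.79 and 1.08 FPKM in pO2-UN-3, with a log2 difference of 2.11 that was 1.998 without pO2-UN-3 replicate 1.

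Among the called genes with a worded entry, the largest fall with pO2 control was that of a heat shock protein. The HSP70 gene YALI0_D08184g (chromosome D, 1043604 to 1045550), a chaperone that binds unfolded proteins, was at 25.6 and 24.8 FPKM in pO2-2, against 442 and 321 FPKM in pO2-UN-3. Its mean was 15.2-fold lower with pO2 control (log2 difference -3.85, SE 0.16, limma adjusted p = 0.00018). It was the only call among 29 chaperones and heat shock proteins, whose median was -0.40. At an adjusted p under 0.05, 15 of these were lower and 4 higher, beside 21.5% and 28.5% of all genes. Those lower included the HSP110 gene YALI0_E13255g with 329 and 323 FPKM in pO2-2 and 752 and 670.1 FPKM in pO2-UN-3 (log2 difference -1.12). The DnaJ-type co-chaperone YALI0_F00880g was at 205 and 208 FPKM in pO2-2 and 554 and 582 FPKM in pO2-UN-3 (log2 difference -1.46). The HSP70 of the endoplasmic reticulum, YALI0_E13706g, went the other way with 969 and 959 FPKM in pO2-2 and 525 and 489 FPKM in pO2-UN-3 (log2 difference 0.93, adjusted p = 0.00068). Adjacent genes with a weaker entry as HSP20 small heat shock proteins, picked after their values were seen, were called lower as well. YALI0_C03443g was at 86.98 and 95.5 FPKM in pO2-2, against 1818 and 914 FPKM in pO2-UN-3 (log2 difference -3.81). YALI0_C03465g was at 50.4 and 62.9 FPKM in pO2-2, against 443 and 256 FPKM in pO2-UN-3 (log2 difference -2.56). In all 3 called heat shock genes pO2-UN-3 replicate 1 was the highest of the 4 libraries.

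Haem synthesis and iron uptake held further called genes. Ferrochelatase YALI0_F19470g (chromosome F, 2598118 to 2599299), which inserts iron into protoporphyrin in the last step of haem synthesis, was at 78.2 and 67.8 FPKM in pO2-2, against 363 and 308 FPKM in pO2-UN-3 (log2 difference -2.18, SE 0.12, limma adjusted p = 0.00038). Of 11 haem synthesis genes it was the only call, and the list median was -0.064. At an adjusted p under 0.05, 5 were lower and 1 higher, beside 21.5% and 28.5% of all genes. Uroporphyrinogen decarboxylase YALI0_C01716g was at 109.9 and 109 FPKM in pO2-2 and 320.0 and 331 FPKM in pO2-UN-3 (log2 difference -1.56). The oxygen-dependent coproporphyrinogen oxidase YALI0_E29975g was at 48.9 and 49.3 FPKM in pO2-2 and 109.7 and 93.5 FPKM in pO2-UN-3 (log2 difference -1.03). The first enzyme of the pathway, 5-aminolevulinate synthase YALI0_C06083g, was at 272 and 287 FPKM in pO2-2 and 239 and 251 FPKM in pO2-UN-3, without overlap of the groups, and missed the threshold (log2 difference 0.19, adjusted p = 0.085). One of the protoporphyrinogen oxidase genes, YALI0_D23331g, was higher with 95.4 and 87.8 FPKM in pO2-2 and 44.5 and 58.3 FPKM in pO2-UN-3 (log2 difference 0.83). Among 24 iron and copper uptake genes 1 was called higher and 2 lower, and 5 were higher and 6 lower at an adjusted p under 0.05, beside 28.5% and 21.5% of all genes. The list median was 0.20, with 15 of the 24 differences positive. The siderophore-iron symporter YALI0_B19250g was at 10.6 and 10.6 FPKM in pO2-2, against 85.7 and 75.3 FPKM in pO2-UN-3 (log2 difference -2.81, adjusted p = 0.00021). The high-affinity iron transporter YALI0_D07304g was at 5.83 and 8.72 FPKM in pO2-2, against 22.8 and 45.2 FPKM in pO2-UN-3 (log2 difference -2.02, -1.77 without pO2-2 replicate 1 and -1.55 without pO2-UN-3 replicate 2). A second siderophore-iron symporter, YALI0_D05401g, rose, with 44.8 and 46.9 FPKM in pO2-2 and 9.59 and 10.9 FPKM in pO2-UN-3 (log2 difference 2.06, 1.97 under median-of-ratios scaling and 1.98 without pO2-UN-3 replicate 1).

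Single genes for the uptake of peptides and amino acids and for the breakdown of RNA and nucleotides were called lower, while the transporter lists had no common direction. The oligopeptide transporter YALI0_D19558g (chromosome D, 2475658 to 2477505) was at 97.1 and 97.6 FPKM in pO2-2, against 584 and 683 FPKM in pO2-UN-3 (log2 difference -2.69, SE 0.096, limma adjusted p = 0.00013). It was the only call among 7 peptide transporters, whose median was -0.004. At an adjusted p under 0.05, 2 were higher and 3 lower, beside 28.5% and 21.5% of all genes. The amino acid transporter YALI0_B19338g was at 44.5 and 45.3 FPKM in pO2-2, against 353 and 220.1 FPKM in pO2-UN-3 (log2 difference -2.61), the only call among 17 in its list, whose median was 0.185, with 7 higher and 3 lower at that threshold. Ribonuclease T2 YALI0_F25839g, which degrades RNA outside the cytosol, was at 16.8 and 17.2 FPKM in pO2-2 and 86.2 and 87.7 FPKM in pO2-UN-3 (log2 difference -2.29, adjusted p = 0.00021). A 5'-nucleotidase, YALI0_D03465g, which releases phosphate from nucleotides, was at 17.2 and 17.7 FPKM in pO2-2 and 80.2 and 95.9 FPKM in pO2-UN-3 (log2 difference -2.27, adjusted p = 0.00043). The multidrug transporter YALI0_F07062g was at 58.9 and 56.5 FPKM in pO2-2, against 416 and 285 FPKM in pO2-UN-3 (log2 difference -2.56).

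The other named genes called lower were single genes of different functions. The glycogen phosphorylase YALI0_F04169g, entered in the files as starch phosphorylase, releases glucose 1-phosphate from the storage polymer. It was at 12.02 and 12.3 FPKM in pO2-2, against 60.05 and 73.04 FPKM in pO2-UN-3 (log2 difference -2.35, SE 0.14, limma adjusted p = 0.00049). Formate dehydrogenase YALI0_E12947g was at 2.18 and 1.38 FPKM in pO2-2 and 17.5 and 14.4 FPKM in pO2-UN-3 (log2 difference -2.62). A probable phosphoglycerate mutase, YALI0_D16445g, was at 7.36 and 7.34 FPKM in pO2-2 and 44.9 and 39.6 FPKM in pO2-UN-3 (log2 difference -2.37). This gene is apart from the glycolytic mutase YALI0_B02728g, whose log2 difference was 0.20. A pair of genes with the function term aldo-keto reductase fell further than any of these and were picked after their values were seen. YALI0_B21780g was at 14.4 and 11.4 FPKM in pO2-2, against 252 and 287 FPKM in pO2-UN-3 (log2 difference -4.29, adjusted p = 0.00013). YALI0_D04092g was at 2.37 and 0.64 FPKM in pO2-2, against 48.9 and 69.1 FPKM in pO2-UN-3 (log2 difference -4.65, adjusted p = 0.00086). Both genes have another gene as their common best match, so fragments may have been divided between near copies. Also lower was the syntaxin YALI0_D25872g, a membrane fusion protein, which was at 12.6 and 10.7 FPKM in pO2-2, against 136 and 37.3 FPKM in pO2-UN-3 (log2 difference -2.52, and -1.60 without pO2-UN-3 replicate 1).

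**Figure D3:**
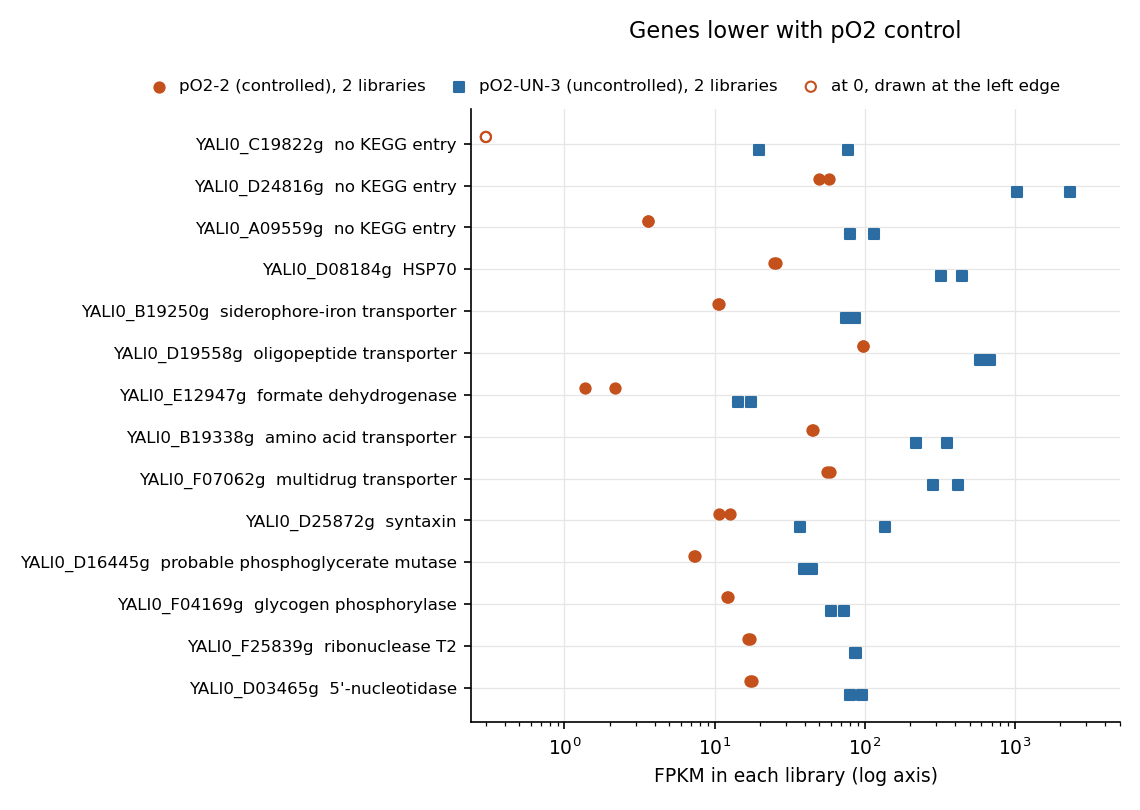
FPKM in each of the 4 libraries (x axis, log scale) for 11 of the 12 called genes with the largest fall and a named KEGG function, and the 3 with the largest fall and no KEGG entry, ordered by log2 difference from top to bottom. Circles are the 2 pO2-2 libraries and squares the 2 pO2-UN-3 libraries. In all 14 genes both circles lie to the left of both squares. An open circle stands for 0 and covers both pO2-2 libraries of YALI0_C19822g, a gene that the controlled table does not list.

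Genes of central carbon metabolism differed by less than these. In glycolysis 1 of 13 genes was called, the hexokinase YALI0_E20207g, at 37.1 and 40.5 FPKM in pO2-2 and 7.53 and 8.56 FPKM in pO2-UN-3 (log2 difference 2.14, limma adjusted p = 0.00064). The more abundant hexokinase YALI0_E15488g was at 307 and 324 FPKM in pO2-2 and 291 and 331 FPKM in pO2-UN-3 (log2 difference 0.02). All 13 differences were positive, from 0.02 to 2.14 with a median of 0.41. At an adjusted p under 0.05, 11 were higher, beside 28.5% of all genes. Under median-of-ratios scaling 12 were positive. Glyceraldehyde 3-phosphate dehydrogenase YALI0_C06369g was at 4662 and 4638 FPKM in pO2-2 and 2665 and 2567 FPKM in pO2-UN-3 (log2 difference 0.83, adjusted p = 0.00068). None of 8 pentose phosphate pathway genes was called. The largest difference among them was that of 6-phosphogluconate dehydrogenase YALI0_B15598g with 1573 and 1587 FPKM in pO2-2 and 856 and 936 FPKM in pO2-UN-3 (log2 difference 0.82). None of 19 TCA cycle genes was called either, and their median was 0.19. Malate dehydrogenase YALI0_E14190g had the largest difference with 1147 and 1114 FPKM in pO2-2 and 550.2 and 613 FPKM in pO2-UN-3 (log2 difference 0.96).

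The glyoxylate cycle bypasses the decarboxylating steps of the TCA cycle, and none of its 4 genes was called. The minor malate synthase YALI0_D19140g was at 24.2 and 23.6 FPKM in pO2-2, against 5.29 and 8.69 FPKM in pO2-UN-3 (log2 difference 1.67, limma adjusted p = 0.0039). The abundant malate synthase YALI0_E15708g was at 379.5 and 393 FPKM in pO2-2, against 242 and 261 FPKM in pO2-UN-3 (log2 difference 0.62, adjusted p = 0.0021). The isocitrate lyase genes YALI0_F31999g and YALI0_C16885g had log2 differences of 0.28 and -0.18 (adjusted p = 0.041 and 0.1). 2-methylcitrate dehydratase YALI0_F02497g, of the cycle that uses propionyl-CoA, was at 288 and 283 FPKM in pO2-2, against 137 and 151 FPKM in pO2-UN-3 (log2 difference 0.99). In gluconeogenesis, pyruvate carboxylase YALI0_C24101g had a log2 difference of 0.37 (adjusted p = 0.071), fructose-1,6-bisphosphatase YALI0_A15972g one of -0.29, and phosphoenolpyruvate carboxykinase YALI0_C16995g one of -0.36. None of these was called.

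Citrate leaves the mitochondrion through carriers and is split by ATP citrate lyase into acetyl-CoA for lipid synthesis. The lyase subunit genes YALI0_E34793g and YALI0_D24431g had log2 differences of 0.72 and 0.43, the first with 669.6 and 667 FPKM in pO2-2 and 396 and 414 FPKM in pO2-UN-3. The citrate carrier YALI0_E34672g was at 72.6 and 75.7 FPKM in pO2-2, against 219.8 and 164 FPKM in pO2-UN-3 (log2 difference -1.35, limma adjusted p = 0.0018). The carriers YALI0_F20966g and YALI0_F26323g had log2 differences of -0.28 and -0.22 and missed the threshold (adjusted p = 0.055 and 0.19). None of these 5 genes was called. Acetyl-CoA carboxylase YALI0_C11407g, the entry step of fatty acid synthesis, was at 288 and 293 FPKM in pO2-2, against 122 and 143 FPKM in pO2-UN-3 (log2 difference 1.13, adjusted p = 0.00092). The beta subunit of fatty acid synthase, YALI0_B15059g, was at 659 and 669.9 FPKM in pO2-2 and 293 and 331 FPKM in pO2-UN-3 (log2 difference 1.09). The delta-12 desaturase YALI0_B10153g, which needs oxygen to form linoleic acid, went the other way with 266 and 253 FPKM in pO2-2, against 706 and 574 FPKM in pO2-UN-3 (log2 difference -1.29, adjusted p = 0.00096). The oxygen-dependent squalene monooxygenase YALI0_E15730g of sterol synthesis was at 55.8 and 56.2 FPKM in pO2-2, against 196 and 136 FPKM in pO2-UN-3 (log2 difference -1.52, adjusted p = 0.0021). None of 10 fatty acid synthesis and desaturation genes and none of 21 mevalonate and ergosterol genes was called. The median of the first list was 0.049 as deposited and -0.047 under median-of-ratios scaling. That of the mevalonate and ergosterol list was 0.23 as deposited. At an adjusted p under 0.05, 9 of its genes were higher and 6 lower, beside 28.5% and 21.5% of all genes. With median-of-ratios scaling the median of this list was 0.134, with 5 higher and 6 lower.

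None of the 5 glycerol entry genes was called. Glycerol kinase YALI0_F00484g was at 462 and 457 FPKM in pO2-2 and 348 and 349.8 FPKM in pO2-UN-3 (log2 difference 0.40, limma adjusted p = 0.0052). The mitochondrial glycerol-3-phosphate dehydrogenase YALI0_B13970g was at 486 and 482 FPKM in pO2-2 and 544 and 567 FPKM in pO2-UN-3 (log2 difference -0.20). The NAD-dependent enzyme YALI0_B02948g differed by -0.10 (adjusted p = 0.36). The aquaglyceroporin genes YALI0_F00462g and YALI0_E05665g had log2 differences of 1.23 and -0.95, the second with 75.2 and 67.8 FPKM in pO2-2 and 120.2 and 161 FPKM in pO2-UN-3.

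In the lists of the respiratory chain and of ribosomes no gene was called, but several lists had a negative median. Of 6 subunits of cytochrome c oxidase, which passes electrons to oxygen, all were lower at an adjusted p under 0.05, with a median of -0.57. Of 9 genes of complex III and cytochrome c, 8 were lower, and the largest difference was that of cytochrome c itself, YALI0_D09273g, at 728 and 795 FPKM in pO2-2 and 2367 and 1991 FPKM in pO2-UN-3 (log2 difference -1.51, limma adjusted p = 0.00064). Complex I had a median of -0.15, with 6 of 19 genes lower and none higher at that threshold. ATP synthase had one of -0.16, with 3 of 11 lower and 2 higher. Over all genes 21.5% were lower and 28.5% higher at that threshold. The alternative NADH dehydrogenases YALI0_F25135g and YALI0_E05599g had log2 differences of 0.18 and -0.06, with groups that overlapped. Of 73 cytosolic ribosomal protein genes, 70 were lower at an adjusted p under 0.05, beside 21.5% of all genes, with a median of -0.82. None reached the call, and the lowest was at -1.32. Their summed level was 108459 and 106629 FPKM in pO2-2, against 193214 and 179548 FPKM in pO2-UN-3. FPKM values are relative to the total of a library, so the levels of a group this abundant and those of all other genes are not independent. Of 150 ribosome biogenesis genes 100 were lower and 4 higher at an adjusted p under 0.05, with a median of -0.61 and none called. Not all genes of translation had this direction, since 31 aminoacyl-tRNA synthetases had a median of 0.168, beside 0.098 for all genes. Of these synthetases 10 were higher and 3 lower, beside 28.5% and 21.5% of all genes. Under median-of-ratios scaling the synthetases had a median of 0.073, with 5 higher and 5 lower. The signs of these medians were the same under median-of-ratios scaling and median centring.

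**Figure D4:**
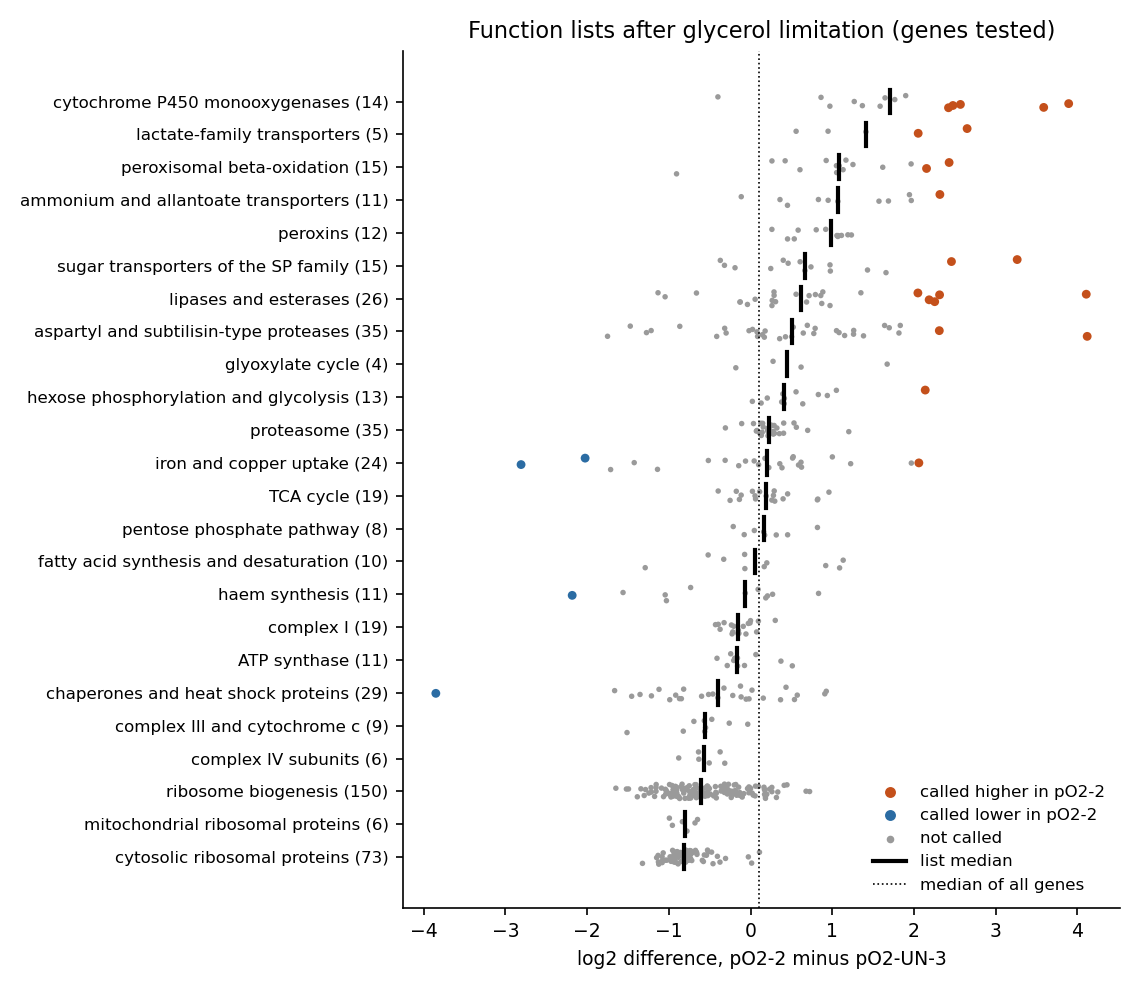
Log2 difference, pO2-2 minus pO2-UN-3 (x axis), of each tested gene of 24 function lists, with the number of genes in parentheses. Thick bars are list medians, the dotted line is the median of all genes, and large coloured points are called genes. The P450 list has the highest median, 1.71, and the cytosolic ribosomal proteins the lowest of those drawn, -0.82, without a called gene.

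Further called genes outside the rule were picked after their values were seen. The carboxypeptidase C gene YALI0_C23661g, with the function term of the vacuole, was at 52.7 and 50.9 FPKM in pO2-2 and 8.36 and 7.23 FPKM in pO2-UN-3 (log2 difference 2.59). The yapsin gene YALI0_D22957g, of a family of aspartyl proteases at the cell surface, was at 126 and 129 FPKM in pO2-2 and 17.3 and 23.9 FPKM in pO2-UN-3 (log2 difference 2.59), although its entry is a distant match. Among oxygenases of enzyme class 1.14, which holds the P450 genes and other enzymes that use O2, 7 of 71 tested genes were called higher and 1 was called lower. That is 9.86% and 1.41%, beside 1.82% and 1.34% of all genes. The 7 include the 5 called P450 genes described above. Another was the cyclohexanone monooxygenase YALI0_F27005g at 31.97 and 30.9 FPKM in pO2-2 and 5 and 6.13 FPKM in pO2-UN-3 (log2 difference 2.31). A pair of dioxygenase genes without a worded name moved in opposite directions, YALI0_B21472g with a log2 difference of 2.20 and YALI0_D17622g with one of -3.59. The soluble epoxide hydrolase YALI0_A01441g, which opens epoxide rings with water, was at 25.2 and 26.1 FPKM in pO2-2 and 4.99 and 4.35 FPKM in pO2-UN-3 (log2 difference 2.24). In proline degradation, 1-pyrroline-5-carboxylate dehydrogenase YALI0_B09647g was at 199 and 203 FPKM in pO2-2 and 39.8 and 55.4 FPKM in pO2-UN-3 (log2 difference 2.08). The betaine lipid synthase YALI0_E10197g, whose product is a membrane lipid without phosphorus, was at 21.9 and 20.9 FPKM in pO2-2 and 3.67 and 4.85 FPKM in pO2-UN-3 (log2 difference 2.10). Among those lower, a second formate dehydrogenase, YALI0_F13937g, was at 3.77 and 4.30 FPKM in pO2-2 and 40.9 and 11.98 FPKM in pO2-UN-3 (log2 difference -2.21). The MADS-box transcription factor YALI0_F18788g was at 35.9 and 32.5 FPKM in pO2-2 and 184 and 121 FPKM in pO2-UN-3 (log2 difference -2.10).

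Genes without a KEGG entry made up 91 of the 196 calls, 42 higher and 49 lower. Entries were present for 53.6% of called genes and for 63.2% of all genes tested. Among those higher, YALI0_E33385g (chromosome E, 3960251 to 3961189) was at 452 and 473 FPKM in pO2-2, against 31.6 and 15.97 FPKM in pO2-UN-3 (log2 difference 4.30, limma adjusted p = 0.00066). YALI0_F08085g (chromosome F, 1141567 to 1142619) was at 117 and 115 FPKM in pO2-2, against 5.63 and 4.59 FPKM in pO2-UN-3 (log2 difference 4.27). YALI0_D26411g (chromosome D, 3513712 to 3514359) was at 420.2 and 436 FPKM in pO2-2, against 23.8 and 23.7 FPKM in pO2-UN-3 (log2 difference 4.11). Among those lower, YALI0_D24816g (chromosome D, 3299616 to 3300014) was at 49.6 and 57.98 FPKM in pO2-2, against 2343 and 1040.3 FPKM in pO2-UN-3 (log2 difference -4.84, adjusted p = 0.00074). YALI0_A09559g (chromosome A, 956214 to 957422) was at 3.60 and 3.59 FPKM in pO2-2, against 116 and 79.8 FPKM in pO2-UN-3 (log2 difference -4.40). YALI0_C19822g (chromosome C, 2687753 to 2688151) is not listed in the controlled table and was taken as 0 there, against 77.8 and 19.8 FPKM in pO2-UN-3, so no fold is given for it. The most abundant called genes also lacked an entry and were picked after their values were seen. YALI0_D20306g was at 2909.6 and 2979 FPKM in pO2-2, against 362 and 589.9 FPKM in pO2-UN-3 (log2 difference 2.67), and YALI0_C22394g was at 576 and 523 FPKM in pO2-2, against 2379 and 2114 FPKM in pO2-UN-3 (log2 difference -2.03).

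Called genes were found on all 6 chromosomes, on 2.48% to 4.75% of the genes tested of each. Neighbouring genes called in the same direction formed 14 pairs, 5 of them higher and 9 lower, and these pairs held 26 of the 196 called genes. The number of pairs to be found without clustering was not worked out, so this count does not show clustering. The pairs included the HSP20 pair and the P450 gene YALI0_A20130g beside the elongation factor gene YALI0_A20152g (chromosome A, 2165812 to 2170157). The aspartyl protease YALI0_C08899g lies beside YALI0_C08921g on chromosome C, a gene without an entry, at 129 and 122 FPKM in pO2-2 and 7.05 and 6.92 FPKM in pO2-UN-3 (log2 difference 3.99). Whether the counting used strand is not stated, so reads of overlapping neighbours could have been shared between them.

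The same contrast before glycerol limitation addresses whether the differences belonged to the later phase alone. It compared group pO2-1, with pO2 control, to group pO2-UN-2, without it, in 4 other libraries, and called 884 genes higher (14.4%) and 565 lower (9.18%) of 6158 tested. The median absolute log2 difference was 0.41 after and 1.04 before glycerol limitation. Of the 113 genes called higher after limitation, 45 (39.8%) were also called higher before it, and these were 5.09% of the genes called higher before. Of the 83 lower genes 26 (31.3%) were also called lower before, which is 4.6% of the genes lower before. The difference between the effects was tested as an interaction over all 8 libraries. It was called for 430 genes as more positive after limitation (6.85%) and for 742 as more negative (11.8%) of 6278 tested. Under median-of-ratios scaling these counts were 576 and 627. The median interaction of all genes was -0.20 as deposited and 0.03 with that scaling.

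Of the 113 higher genes, 39 had an effect that was more positive after limitation and 13 one that was more positive before it. These 113 genes were chosen by their effect after limitation, and the interaction uses the same libraries. That choice favours the first count, so the counts do not test the phase. The GlcNAc genes, the called alkaline phosphatase and the called catalase were among the 39. Alkaline phosphatase D YALI0_F08129g had a log2 difference of -0.22 before limitation, with 4.04 and 4.59 FPKM in pO2-1 and 5.63 and 4.77 FPKM in pO2-UN-2, so its effects differed by 4.64 (SE 0.20, limma adjusted p = 9.2e-07). For the GlcNAc-6-phosphate deacetylase YALI0_E20163g the difference between effects was 3.72 (adjusted p = 9.4e-06), and for the deaminase YALI0_C01419g 3.75 (adjusted p = 1.6e-06). Catalase YALI0_E34749g was lower with pO2 control before limitation, at 154 and 156 FPKM in pO2-1 and 556 and 264 FPKM in pO2-UN-2, and the effects differed by 3.42 (adjusted p = 0.00016). Cerevisin YALI0_A10208g (difference of effects 4.00) and the ADP/ATP carrier YALI0_F19712g (2.77) followed the same order. Cerevisin was at 0.31 and 0.77 FPKM in pO2-1 and 0.32 and 0.48 FPKM in pO2-UN-2, too low to be tested in that phase. The carrier was at 1.05 and 1.05 FPKM in pO2-1 and 0.66 and 0.44 FPKM in pO2-UN-2. A lactate-family transporter showed the opposite. YALI0_E32901g was at 355 and 355 FPKM in pO2-1, against 0.13 and 0.38 FPKM in pO2-UN-2, a log2 difference of 8.16 before limitation, so the later effect was smaller by 5.51 on the log2 scale (adjusted p = 3e-05). The P450 genes YALI0_B13838g and YALI0_E25982g were called higher in both phases, with log2 differences of 2.89 and 3.32 before limitation, and no difference between their effects was called (adjusted p = 0.057 and 0.51). Other P450 genes had a called interaction, namely YALI0_F01320g (-5.24), YALI0_E14509g (-3.64), YALI0_B13816g (-2.85) and YALI0_A20130g (2.21). The P450 list had medians of 1.71 after and 2.86 before limitation. The interaction of YALI0_E25982g was 0.27, but -1.63 with FPKM + 0.1 in place of FPKM + 1, and its levels in pO2-UN-2, 0.13 and 0.25 FPKM, were near 0.

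Of the 83 lower genes, 37 had an effect more negative after limitation and 5 one more negative before it. Here too the genes were chosen by their effect after limitation, which favours the first count. Of the 83, 10 were called higher before limitation, a share not above the 14.4% of all genes tested before it. The 5'-nucleotidase YALI0_D03465g was higher with pO2 control before limitation, at 205 and 208 FPKM in pO2-1 and 2.67 and 2.64 FPKM in pO2-UN-2, and its effects differed by -8.09 (SE 0.17, limma adjusted p = 3.9e-08). Ribonuclease T2 YALI0_F25839g was at 93.1 and 83.4 FPKM in pO2-1 and 3.81 and 5.41 FPKM in pO2-UN-2, and its effects differed by -6.29 (adjusted p = 4e-07). The HSP70 gene YALI0_D08184g was lower in both phases, with a log2 difference of -4.80 before limitation, at 88.2 and 86.6 FPKM in pO2-1 and 2465 and 2469 FPKM in pO2-UN-2. Its effects differed by 0.95 (adjusted p = 0.0029), under the log2 minimum. The siderophore-iron symporter YALI0_B19250g was likewise lower in both, with -2.67 before limitation and a difference of effects of -0.14 (adjusted p = 0.5). Ribosomal proteins were lower in both phases, with medians of -0.82 after and -2.87 before limitation, and 68 of the 73 were called before it. The peroxisomal beta-oxidation list had medians of 1.09 after and 4.05 before limitation.

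**Figure D5:**
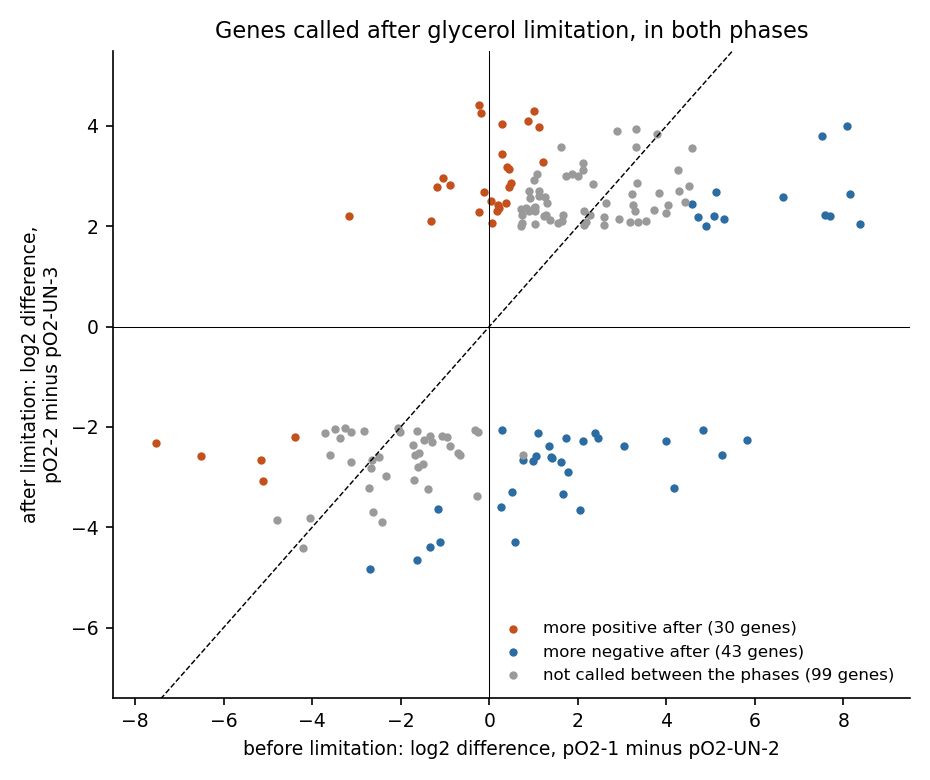
Log2 difference with against without pO2 control after limitation (y axis) and before limitation (x axis) for the 172 of 196 called genes that were also tested before limitation. The dashed line marks equal effects. Orange points are 30 genes with an effect more positive after, blue points 43 genes with an effect more negative after, and grey points 99 genes without a called interaction. In the lower right part lie genes that fell with pO2 control after limitation and were higher with it before.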

How the data were processed

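RNA of *Y. lipolytica* ACA DC 50109 was sequenced by the study as paired-end Illumina libraries. The study names TopHat2 and Cufflinks for mapping and quantification against the CLIB122 assembly GCA_000002525.1, with versions not given in the sources used here. The authors deposited FPKM values per gene, without scaling between libraries, in a table of the controlled and a table of the uncontrolled culture. Such values are relative to each library's total, so a large shift in abundant genes moves the values of all others.

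The tables held 6371 and 6386 genes and were joined by gene identifier into 6394 genes, with an absent gene taken as 0. All columns of values were matched to a sample by name. A gene entered a fit when 2 or more of the libraries compared had 1 FPKM or more. It was tested on log2(FPKM + 1), which understates the change of low genes, with limma's moderated test and variance trend (limma 3.58.1, R 4.3.3). Python 3.11.15 with pandas 2.3.3, numpy 2.4.6 and matplotlib 3.10.9 was used for the rest. Calls needed an adjusted p (Benjamini-Hochberg) under 0.05 together with a log2 difference of 2 or more in either direction. Adjusted p-values in the text are from these limma fits over all genes tested. The limma step was also run on simulated data in which all libraries had the same noise. The groups compared here differ in spread, so that run does not check the calls under this condition. Library depth was recovered from low FPKM values, of which 91.9% to 97.3% were whole fragments within 0.1. The FPKM values do not keep whole fragments for longer or abundant genes, and no count model was fitted.

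The members and the 50 function lists were chosen with earlier results of these data known. Lists use the first KEGG Orthology entry at an e-value of at most 1e-30 and got no test of their own. Genes were named by rank (the 12 largest called changes with a worded entry and the 3 largest without an entry in each direction, with an FPKM of at least 5 in both higher libraries), as up to 3 called genes per list and direction, as members of short lists, or because the study names them. One gene that this rule names is not reported here. Others are marked in the text or stand as members of a list described. Alternatives were pseudocounts, filters, scalings, thresholds, the replicate number as a block, and leaving out each library.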

Additional observations from a re-analysis of the deposited data

Results flagged for a closer look

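The effect of pO2 control, pO2-2 minus pO2-UN-3 after glycerol limitation, differed from pO2-1 minus pO2-UN-2 before it for 1172 of 6278 genes in the limma interaction test, and 36 of these are genes named here. Groups held 2 libraries each, so no single library was tested as standing apart. The values below are the later effect minus the earlier one on the log2 scale, and no explanation was tested.

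The later effect was the more positive one by 4.64 for alkaline phosphatase D YALI0_F08129g, 4.00 for cerevisin YALI0_A10208g, 3.24 for the esterase/lipase YALI0_E10659g, 3.75 for the deaminase YALI0_C01419g and 3.72 for the deacetylase YALI0_E20163g. It was 2.00 for the triacylglycerol lipase YALI0_B11858g. The same sign was found for catalase YALI0_E34749g (3.42), the ADP/ATP carrier YALI0_F19712g (2.77), aldehyde dehydrogenase YALI0_C03025g (2.17), elongation factor 2 YALI0_A20152g (2.46) and superoxide dismutase YALI0_B20086g (2.93). Genes without an entry were YALI0_E33385g (3.28), YALI0_F08085g (4.45) and YALI0_D26411g (3.49). YALI0_A10208g, YALI0_B11858g, YALI0_C03025g and YALI0_D26411g were too low before limitation to be tested in that phase. YALI0_C03025g was at 1.04 and 0.77 FPKM in pO2-1 and 0.14 and 0 FPKM in pO2-UN-2. At such levels log2(FPKM + 1) understates the change before limitation.

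The later effect was more negative for other named genes. The values were -3.16 for acyl-CoA oxidase YALI0_E06567g, -3.98 and -4.68 for the malate synthases YALI0_D19140g and YALI0_E15708g, and -3.66 for 2-methylcitrate dehydratase YALI0_F02497g. They were -5.51 and -6.32 for the lactate-family transporters YALI0_E32901g and YALI0_B19470g, -4.88 for glycolate oxidase YALI0_D12661g, -4.86 for catalase YALI0_F30987g and -2.43 for phosphoenolpyruvate carboxykinase YALI0_C16995g. In glycerol entry and alternative respiration they were -3.57 and -2.71 for the aquaglyceroporins YALI0_F00462g and YALI0_E05665g, -3.01 for glycerol-3-phosphate dehydrogenase YALI0_B02948g and -2.21 for NADH dehydrogenase YALI0_E05599g. The sterol glucosyltransferase YALI0_A08998g had -3.72.

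Genes lower after limitation completed the group, with -8.09 for the 5'-nucleotidase YALI0_D03465g, -6.29 for ribonuclease T2 YALI0_F25839g and -4.05 for formate dehydrogenase YALI0_E12947g. The probable phosphoglycerate mutase YALI0_D16445g had -3.72, the amino acid transporter YALI0_B19338g -4.00 and the oligopeptide transporter YALI0_D19558g -3.68. The genes without an entry YALI0_D24816g and YALI0_C19822g had -2.14 and -5.34. YALI0_C19822g was taken as 0 in the controlled libraries, which do not list it, and was at 0 in both pO2-UN-2 libraries. Its value therefore reflects only its level in pO2-UN-3, 77.8 and 19.8 FPKM.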

How the results depend on the processing

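The counts of 113 higher and 83 lower genes moved with the size demanded. At an absolute log2 difference of at least 1 they were 523 and 376, and with no minimum 1768 and 1336. With no minimum, the larger count changed sides with scaling. It was 1477 higher and 1586 lower under median-of-ratios scaling, and 1466 and 1583 under median centring. The function lists held 35 called genes, 183 at the log2 minimum of 1 and 645 with none. Leaving out each library in turn gave 98 to 135 higher and 53 to 92 lower genes, 31 to 43 list genes and 1145 to 1200 genes with a called interaction. The arm with 1 library left was assumed to vary like the others. The replicates do not bear this out, with variances of 1.26 times the sampling noise in pO2-2 and 17.0 times in pO2-UN-3. Without a pO2-UN-3 library, the spread in the contrast after limitation came from pO2-2 alone. Calls kept in those fits, also those of named genes, therefore rest on too small a spread. The lowest count of lower genes, 53, came without pO2-UN-3 replicate 1, which had the higher value in 68 of the 83. Pseudocounts of 0.1 and 0.01, both filters, both scalings and limma without trend gave 101 to 139 higher and 78 to 100 lower genes.

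Of 50 named genes called, 41 kept the call under every alternative that tested them, and 7 of the other 9 lost it only without a library. Among named genes that were not called, glycolate oxidase YALI0_D12661g ranged over -0.20 to 0.11 when single libraries were left out (0.11 without pO2-2 replicate 2, 0.0046 without pO2-UN-3 replicate 1), and superoxide dismutase YALI0_B08921g over -0.22 to 0.052 (0.052 without pO2-UN-3 replicate 2). With a pseudocount of 0.1 the interaction changed sign for YALI0_B13838g (-0.11), YALI0_E25982g (-1.63), YALI0_D00363g (-0.87), YALI0_A17875g (-0.11) and YALI0_A11473g (-0.032). With median-of-ratios scaling it did so for YALI0_F20966g (0.072), YALI0_E34672g (0.048), YALI0_B19250g (0.11) and YALI0_A09559g (0.089). The cause was not tested.

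Replicate numbers did not pair the libraries, since deviations of same-numbered libraries correlated at 0.042 over 6209 genes. With the replicate block 113 genes were higher and 84 lower, and 1172 interactions were called, so the block changed no call count by over 1.5 times. Depth limits low genes most, and with 2 libraries a group the spread of a single gene rests on limma's pooling across genes.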
